A study of Astyanax mexicanus with 36 samples.

Results

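The data described here are the oocyte libraries labelled 300um, set against those labelled 100_300um, in 3 populations of the Mexican tetra, Astyanax mexicanus. They were chosen by the size category in the library name, which gave 18 of the 36 bulk RNA libraries of the series, 9 of each size and 3 for each population and size. The groups were Pachon, Molino and surface oocytes at 300um, and Pachon, Molino and surface oocytes at 100_300um. Pachon and Molino are blind cave forms, and surface fish are the eyed river form of the same species. All 6 groups shared the wild-type genotype, no treatment, an age of about 520 days and the right ovary as source. The category is written as a single size in one case and as a range in the other, and the labels do not say whether 300um is a bound or a midpoint. They also do not tell whether libraries of 1 group came from different fish, so p-values speak of the spread between these libraries, part of which may be technical.

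A fish oocyte grows inside a follicle of granulosa cells wrapped by theca, stroma and vessels, and the follicle travels with the oocyte unless it is stripped off. Follicle growth is driven largely by follicle-stimulating hormone, while luteinizing hormone, read through lhcgr, drives the later switch of steroid output and the resumption of meiosis. Granulosa cells and oocyte exchange ligands of the activin, bone morphogenetic protein, WNT and insulin-like growth factor families, and fish carry a gonadal member of the last family, igf3.

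Reads assigned to genes numbered 5191749 to 7696793 in the 300um libraries and 6144981 to 9345334 in the 100_300um libraries. On average 59% of the reads of a 300um library were assigned to genes, against 64.7% at 100_300um, and multimapping reads made up 12.4% and 8.6% of the libraries in that order. The libraries of both sizes were rich in oocyte transcripts: 30 oocyte factors summed to 9457 to 19880 CPM, read counts scaled to a common library size, at 300um and to 10840 to 16080 CPM at 100_300um. The 300um libraries carry 1 run of library numbers and the 100_300um libraries another, so size and that run cannot be told apart. In bulk RNA, fewer cells of a type and less RNA per cell cannot be told apart either.

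The 2 sizes were compared within 9 pairs, each a population and replicate number, and the change was averaged over the 3 populations. The labels do not say whether same-numbered libraries of the 2 sizes came from the same fish, so the pairing is an assumption. Of 16174 genes tested, 612 passed an adjusted p of 0.05, or 3.78% of all genes tested, 304 of them higher at 300um (1.88%) and 308 lower (1.90%). Adjusted p-values throughout are from edgeR's quasi-likelihood test with Benjamini-Hochberg adjustment over all genes tested, and changes are log2 fold changes of 300um over 100_300um. Each standard error (SE) of a change is the size of the change divided by the square root of that test's F statistic. It is an approximation and can be far off for changes near 0. The typical called gene moved little, with a median size of 0.85 on the log2 scale among higher genes and 0.54 among lower ones, but 132 and 107 of them in that order moved at least 2-fold. Without the pairing the count was 117, of which 76 were higher and 41 lower. A set of 66 genes, 43 higher and 23 lower, passed in all 17 alternative settings tried, including each pair left out in turn. Most genes given library by library below come from that set.

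**Figure D1:**
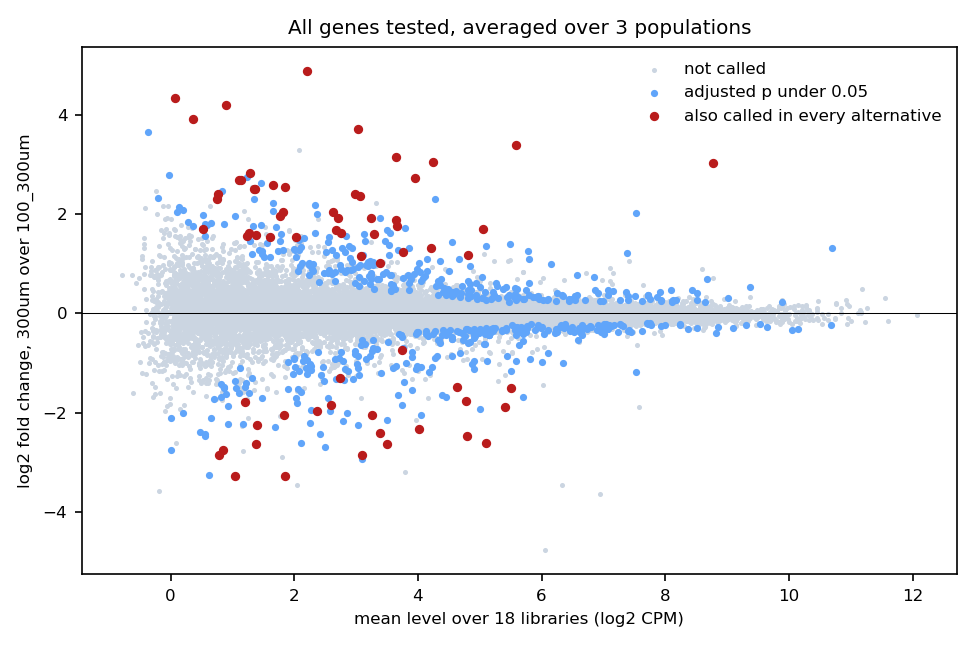
Each point is 1 of the 16174 genes tested, with its mean level over the 18 libraries (log2 CPM, horizontal) and its log2 fold change of 300um over 100_300um averaged over the populations (vertical). The 66 genes that passed in all settings (red) lie mostly more than 1 unit from 0, while many of the other called genes (blue) sit close to 0 at higher levels.

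Among gonadotropin receptors, lhcgr, the receptor for luteinizing hormone, was higher at 300um in every pair, a condition of the rule for the largest changes. Its level was 9.76, 29.7 and 20.2 CPM in Pachon, 30.8, 56.0 and 75.0 CPM in Molino and 31.6, 14.4 and 41.5 CPM in surface libraries at 300um. At 100_300um it was 5.39, 4.62 and 1.70 CPM in Pachon, 3.57, 5.17 and 3.301 CPM in Molino and 3.44, 2.2 and 3.97 CPM in surface libraries. The lowest 300um library lay above the highest 100_300um library, and the change in each population passed in the joint fit of 18 libraries. Its change was 3.05 ± 0.24 (SE, adjusted p = 0.0001333). The receptor for follicle-stimulating hormone, fshr, averaged 5.55 ± 2.77 CPM at 300um and 5.93 ± 2.37 CPM at 100_300um (SD, n = 9 each), and its averaged change of -0.18 ± 0.15 did not pass (adjusted p = 0.5203). Of 23 tested genes for gonadotropin receptors and cyclic AMP signalling, 2 were higher, lhcgr and the phosphodiesterase pde7a, and none was lower, with a list median of 0.10 against 0.002 over all genes tested. The share called was 8.7%, against 3.78% over all genes tested. The call of pde7a, a change of 0.33, was lost in 7 of the 9 fits that left out 1 pair, with an adjusted p of up to 0.1231, and pde7a both shares its symbol with another gene and overlaps dnajc5b in the RefSeq table.

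A pair of 17-beta hydroxysteroid dehydrogenases moved in opposite directions. The gene hsd17b3, whose mammalian product makes testosterone from androstenedione, ranged from 0.91 to 9.03 CPM with a median of 3.00 CPM at 300um, and from 0.12 to 1.47 CPM with a median of 0.47 CPM at 100_300um. The sizes overlapped over all libraries but not within any population, and the change was 2.83 ± 0.31 (SE, adjusted p = 0.0002953). The gene hsd17b1, whose product makes estradiol from estrone in mammals, ranged from 1.44 to 6.86 CPM with a median of 2.201 CPM at 300um, and from 2.17 to 43.7 CPM with a median of 10.4 CPM at 100_300um. It was lower in all 9 pairs, a condition of the rule for the largest changes. Its change was -2.05 ± 0.27 (SE, adjusted p = 0.001576), and the sizes overlapped only in Molino. The aromatase cyp19a1a averaged 9.58 ± 7.40 CPM at 300um and 12.6 ± 10.7 CPM at 100_300um (SD, n = 9 each), and the cholesterol carrier star averaged 1.64 ± 0.72 and 1.93 ± 0.82 CPM in that order. Neither passed, with changes of -0.38 ± 0.20 for cyp19a1a and -0.23 ± 0.32 for star. The 17-alpha hydroxylase cyp17a1, picked out after its values were seen, had a change of 0.13 ± 0.23 and did not pass. Other members rose too: nr5a1a, a nuclear receptor that switches on steroid enzyme genes, by 1.18 ± 0.21, and hsd11b2, which inactivates cortisol, by 1.28 ± 0.23. In all, 3 of 36 tested genes of steroid synthesis were higher and 1 was lower, 11.1% called against 3.78% over all genes tested. The call of nr5a1a was lost without Pachon replicate 2 (adjusted p = 0.05095).

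Genes read out by the maturing follicle were split. The nuclear progestin receptor pgr, which in fish is needed for ovulation, ranged from 17.2 to 137 CPM with a median of 58.0 CPM at 300um and from 7.75 to 63.1 CPM with a median of 21.5 CPM at 100_300um. It rose by 1.39 ± 0.24 (SE, adjusted p = 0.01773), although the sizes overlapped in each population. The prostaglandin synthase ptgs2b fell to a median of 3.06 CPM at 300um, against 7.74 CPM at 100_300um, a change of -1.32 ± 0.29. Of 34 tested genes of steroid receptors and maturation, 4 were higher and 3 lower, 20.6% called against 3.78% over all genes tested. The higher ones besides pgr were egfra, a receptor for epidermal growth factor ligands, NPR2, a receptor for C-type natriuretic peptide, and TIMP3, an inhibitor of matrix proteases. The lower ones besides ptgs2b were hbegfa, a ligand of the epidermal growth factor receptor, and the matrix protease ADAMTS1. With 1 pair left out, pgr lost its call in 4 of 9 fits (adjusted p up to 0.05865), ptgs2b in 6 (up to 0.1121), hbegfa in 4 (up to 0.07592) and TIMP3 in 1 (0.05726, without Pachon replicate 2). The calls of egfra, NPR2 and ADAMTS1 lay near the threshold (adjusted p = 0.03185, 0.03165 and 0.0458), and their values with 1 pair left out are not given here.

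Among ligands of the follicle, igf3 was higher at 300um in 8 of 9 pairs. Its level at 300um was 18.1, 24.7 and 17.9 CPM in Pachon, 10.6, 22.6 and 25.9 CPM in Molino and 9.60, 8.07 and 20.1 CPM in surface libraries. At 100_300um it was 18.9, 17.7 and 12.7 CPM in Pachon, 1.40, 1.72 and 4.52 CPM in Molino and 4.55, 1.57 and 3.404 CPM in surface libraries. The sizes were apart in Molino and surface fish and overlapped in Pachon. The averaged change was 1.76 ± 0.17 (SE, adjusted p = 0.0001333). Of 34 tested insulin and insulin-like growth factor genes, 5.88% were called, against 3.78% over all genes tested. Here igf3 was the 1 called higher, and the receptor igf1ra was the 1 called lower, by -0.38 ± 0.09. That last call was lost in 6 of 9 fits with 1 pair left out (adjusted p up to 0.1221).

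An activin subunit gene and an activin binder were lower at 300um. The activin subunit gene inhbb was 3.05, 5.16 and 3.18 CPM in Pachon, 0.36, 1.09 and 1.65 CPM in Molino and 1.80, 0.88 and 0.72 CPM in surface libraries at 300um. At 100_300um it was 11.5, 17.6 and 7.16 CPM in Pachon, 1.86, 2.48 and 6.85 CPM in Molino and 9.92, 4.40 and 4.54 CPM in surface libraries. Within each population all 300um libraries lay below all 100_300um libraries, and the change was -1.96 ± 0.18 (SE, adjusted p = 0.0001333). The gene fstl3, a secreted protein that binds activin, ranged from 3.61 to 13.5 CPM with a median of 6.10 CPM at 300um and from 15.5 to 117 CPM with a median of 31.6 CPM at 100_300um. The 2 sizes did not overlap over all 18 libraries, and the change was -2.46 ± 0.23 (SE, adjusted p = 0.0006808). Another subunit, inhbaa, and the inhibin subunit inha, both picked after their values were seen, had changes of -0.40 ± 0.22 and 0.08 ± 0.30 and did not pass. Of 23 tested genes of the family, 2 were lower and 1, the pseudoreceptor bambia, was higher by 0.69 ± 0.12. The share called was 13.0%, against 3.78% over all genes tested. A second gene in the table shares the symbol inhbb, and reads could be split between them.

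All 3 called WNT genes were lower at 300um, out of 45 tested, a share of 6.67% against 3.78% over all genes tested, and the list median was 0.03. The ligand wnt4, needed for ovary formation in mammals, fell to between 0 and 0.72 CPM at 300um, with a median of 0.27 CPM, against 0.97 to 11.2 CPM with a median of 1.72 CPM at 100_300um. No 300um library reached the lowest 100_300um library. Its change of -3.26 ± 0.43 (SE, adjusted p = 0.001168) rested on 16 reads over the 9 libraries of 300um and 216 reads at 100_300um. The ligand wnt9b lay between 0.30 and 2.94 CPM at 300um and between 3.27 and 17.97 CPM at 100_300um, again with no overlap, and changed by -1.96 ± 0.34 (SE, adjusted p = 0.009562). The third, rspo3, which amplifies WNT signals, changed by -2.11 ± 0.48 (SE, adjusted p = 0.03118) on 20 and 149 reads at 300um and 100_300um. The call of wnt9b was lost without Pachon replicate 2 (adjusted p = 0.05663) or Molino replicate 3, and that of rspo3 in 5 of 9 fits with 1 pair left out (up to 0.1499). In the RefSeq gene table wnt9b overlaps arf2a, so reads of the 2 genes may mix where counting ignored strand.

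Bone morphogenetic protein signalling had 3 higher and 1 lower of 25 tested genes, 16.0% called against 3.78% over all genes tested. The receptors bmpr1bb and bmpr2b rose by 0.79 ± 0.17 and 0.43 ± 0.07, and the target id2a by 0.59 ± 0.14, while chrd, whose product binds and blocks these ligands, fell by 1.30 on the log2 scale (SE 0.30). The oocyte's own ligands of this family did not pass. The growth factor gdf9 averaged 63.4 ± 5.96 CPM at 300um and 53.6 ± 13.1 CPM at 100_300um, and bmp15 averaged 108 ± 9.72 and 96.1 ± 19.9 CPM in that order (SD, n = 9 each). With 1 pair left out, bmpr1bb lost its call in 3 of 9 fits (adjusted p up to 0.1079), id2a in 5 (up to 0.1217) and chrd in 5 (up to 0.1366).

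**Figure D2:**
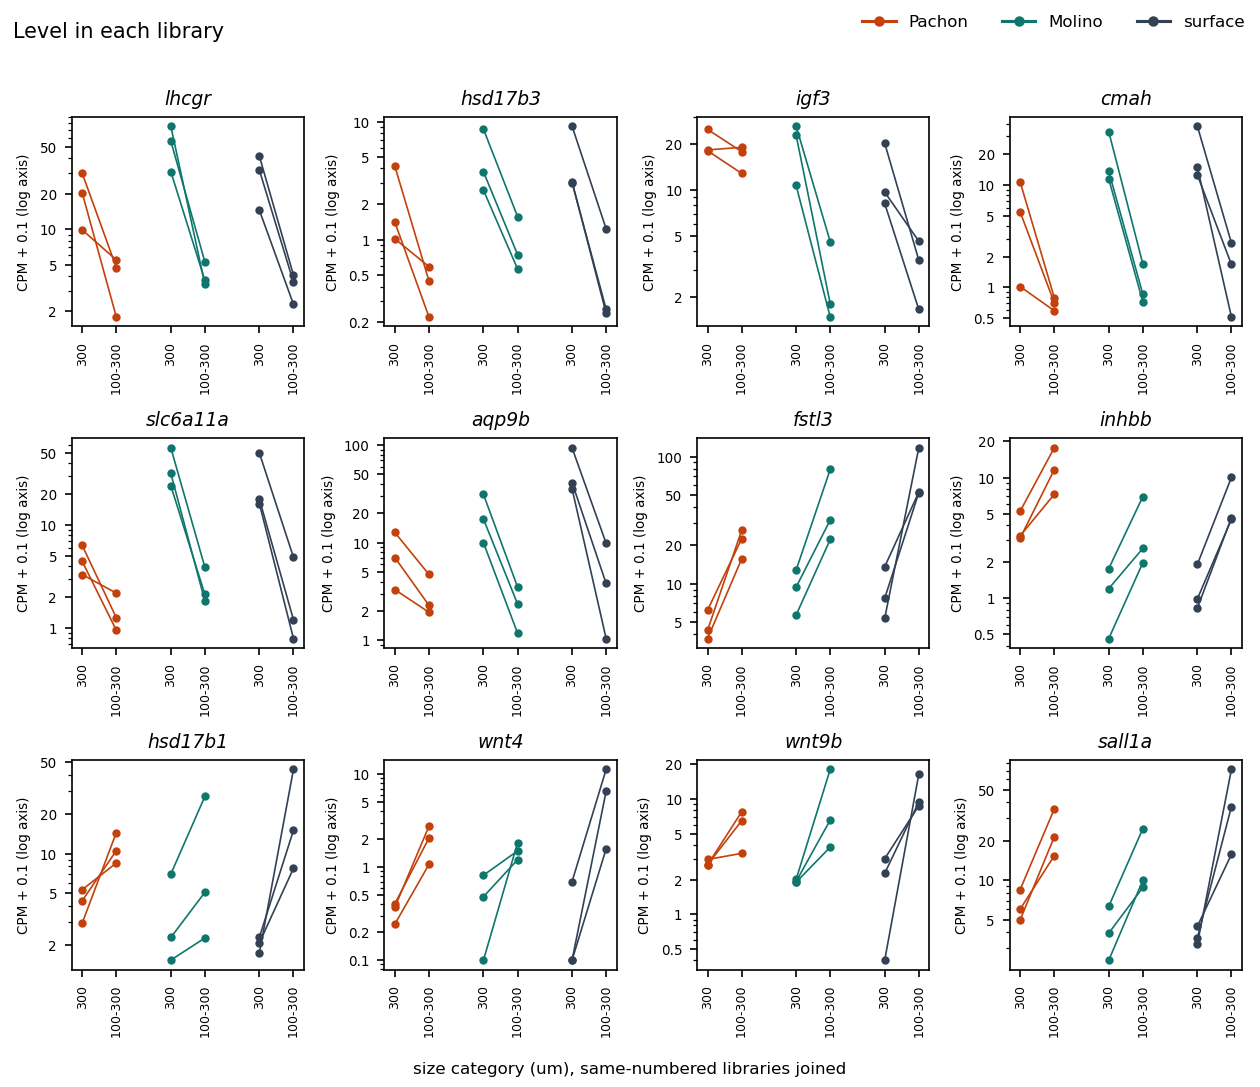
Level of 12 genes in each of the 18 libraries (CPM + 0.1, log axis), with the 300um libraries left of the 100_300um libraries in each population and lines joining libraries of the same number. The genes lhcgr, hsd17b3, cmah, slc6a11a and aqp9b slope down from 300um to 100_300um in all 9 pairs, igf3 in 8, and fstl3, inhbb, hsd17b1, wnt4, wnt9b and sall1a slope up in all 9. For all but igf3, inhbb and wnt9b, the same direction in 9 pairs was a condition of being named among the largest changes.

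Transcription factors of the gonad changed in both directions, 4 higher and 2 lower of 26 tested. Among all genes tested 1.88% were called higher and 1.90% lower, 3.78% in either direction. The GATA factors, which bind promoters of steroid and inhibin genes in mammals, were higher together. The gene gata5 ranged from 0.76 to 37.2 CPM with a median of 5.84 CPM at 300um and from 0.61 to 4.52 CPM with a median of 1.40 CPM at 100_300um, a change of 1.92 ± 0.22 (SE, adjusted p = 0.000346). The gene gata6 had medians of 15.9 CPM at 300um and 3.34 CPM at 100_300um and rose by 1.67 ± 0.23 (SE, adjusted p = 0.002535), and both were higher in all 9 pairs. The gene gata4 rose by 1.01 ± 0.26 but kept its call in only 2 of 9 fits with 1 pair left out. On the other side, sall1a, a zinc finger factor, ranged from 2.34 to 8.41 CPM at 300um and from 8.73 to 71.4 CPM at 100_300um. Its sizes did not overlap, and the change was -2.32 ± 0.21 (SE, adjusted p = 0.000218). Its relative SALL1, picked after its values were seen, changed by -1.71 ± 0.34 and was lower in all 9 pairs.

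Counts over the granulosa list showed no single direction. Of 28 tested markers, 3 were higher (lhcgr, igf3 and gata4) and 5 lower (inhbb, notch3, hsd17b1, gja1b and gsdf), and the list median was -0.01. In either direction 28.6% were called, against 3.78% over all genes tested. Within populations the list median was 0.04 in Pachon, 0.15 in Molino and -0.28 in surface fish. There 1 marker was called higher and 1 lower in Pachon, 3 and 1 in Molino, and 2 and 6 in surface fish. Over all genes tested, 1.42% were called in Pachon, 0.915% in Molino and 0.915% in surface fish. The summed level of the 34 listed markers was 859 to 1470 CPM at 300um and 828 to 1561 CPM at 100_300um, and was higher at 300um in 6 of 9 pairs. The receptor notch3, read out after its values were seen, averaged 21.2 ± 10.5 CPM at 300um and 47.1 ± 33.9 CPM at 100_300um and fell by 0.96 on the log2 scale (SE 0.15). The secreted factor gsdf, a gonadal member of the transforming growth factor family known from fish, fell by 0.89 (SE 0.16), and the gap junction gene gja1b fell by 0.93 (SE 0.17). The averaged call of gja1b was lost without Pachon replicate 2 or Molino replicate 3 (adjusted p up to 0.05796). These averaged falls were largest in surface fish. Own changes in Pachon, Molino and surface fish were 0.29, -0.71 and -2.25 for gsdf and 0.09, -0.36 and -2.505 for gja1b. For notch3 they were -0.50, -0.73 and -1.64 in that order. For gsdf and notch3 only the surface change passed. The marker amh, anti-Müllerian hormone, had 0.65 ± 0.34 CPM at 300um and 1.52 ± 1.11 CPM at 100_300um and did not pass.

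Retinoid genes were also divided. The gene crabp1a, a cytosolic carrier of retinoic acid, ranged from 0.30 to 5.97 CPM at 300um and from 0.16 to 0.81 CPM at 100_300um and rose by 2.40 ± 0.36 (SE, adjusted p = 0.002603). The enzyme gene rdh10a, which makes the precursor of retinoic acid, fell by 1.80 (SE 0.32), and cyp26c1, which degrades retinoic acid, fell by 2.38 (SE 0.48). The remaining 24 of 27 tested genes of the list did not pass, and the share called was 11.1%, against 3.78% over all genes tested. Without Pachon replicate 2 the call of rdh10a was lost (adjusted p = 0.05095), and that of cyp26c1 was lost in 3 of 9 fits with 1 pair left out (up to 0.09644).

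The largest rises among genes with a symbol and a mean log2 CPM of at least 1 included a sugar-modifying enzyme and transporters. The gene cmah, which converts N-acetylneuraminic to N-glycolylneuraminic acid, the sialic acid of many glycoproteins, was 0.91, 10.6 and 5.34 CPM in Pachon, 11.3, 13.5 and 33.0 CPM in Molino and 14.8, 12.5 and 37.6 CPM in surface libraries at 300um. At 100_300um it was 0.49, 0.69 and 0.61 CPM in Pachon, 0.62, 0.75 and 1.59 CPM in Molino and 0.41, 1.57 and 2.61 CPM in surface libraries. Pachon replicate 1 stood nearest to its partner, and no population overlapped. The change was 3.71 ± 0.24 (SE, adjusted p = 3.138e-06). The enzyme gene gne, which starts sialic acid synthesis, rose by 0.37 ± 0.05, and those were the 2 called genes, both higher, of 19 tested for sialic acid and glycan transfer. That share was 10.5%, against 3.78% over all genes tested. The gene slc6a11a, a transporter of the GABA family, ranged from 3.201 to 56.3 CPM with a median of 17.8 CPM at 300um and from 0.69 to 4.76 CPM with a median of 1.72 CPM at 100_300um. It was higher in all 9 pairs, a condition of the rule for the largest changes. In no population did its sizes overlap, and its change was 3.14 ± 0.18 (SE, adjusted p = 2.631e-06). Besides it, the taurine transporter slc6a6a rose by 1.28 ± 0.23, and the other 27 of 29 tested neurotransmitter and amine transporters did not pass. In that list 6.9% were called, against 3.78% over all genes tested. The call of slc6a6a was lost in 3 of 9 fits with 1 pair left out (adjusted p up to 0.07042).

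Water and ion carriers were part of the same group. The aquaglyceroporin aqp9b, which passes water, glycerol and urea, ranged from 3.201 to 93.8 CPM at 300um and from 0.94 to 9.76 CPM at 100_300um, and rose by 2.71 ± 0.16 (SE, adjusted p = 2.661e-06). Its sizes overlapped in Pachon and were apart in Molino and surface fish. The sodium-calcium exchanger slc8a1a rose by 2.5 ± 0.30, and slco1c1, a carrier of thyroid hormone in mammals, by 2.58 ± 0.32. Beside these, and picked after its values were seen, DIO3, the deiodinase that inactivates thyroid hormone, lay between 0.44 and 4.32 CPM at 300um and between 0 and 0.28 CPM at 100_300um. Its change of 4.34 ± 0.57 (SE, adjusted p = 0.002026) rested on 94 reads at 300um and 6 reads at 100_300um, and the sizes did not overlap. The borate and proton carrier SLC4A11, 1 of 2 genes with that symbol, rose by 1.18 ± 0.12 and was called in each population. The other, with 15.8 ± 11.2 CPM at 300um and 14.2 ± 11.3 CPM at 100_300um, did not pass.

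Several further genes of the 66 were higher in all 9 pairs, which is a condition of the rule for the largest changes. The intermediate filament gene desmb rose by 2.68 ± 0.41, the scaffold CNKSR2 by 2.55 ± 0.23, the endocytosis factor RIN2 by 2.68 ± 0.39, the procollagen protease enhancer pcolce2b by 2.51 ± 0.40 and the chemokine scavenger ackr4b by 2.04 ± 0.24. Their levels were low, with medians from 3.00 to 8.81 CPM at 300um and from 0.35 to 2.31 CPM at 100_300um. Both RIN2 and CNKSR2 share a symbol with another gene, and ackr4b overlaps acad11 in the RefSeq table. Chosen after the values were seen, GAL3ST3, a sulfotransferase acting on galactose, changed by 4.20 ± 0.51 on 192 reads at 300um and 9 reads at 100_300um. Chosen in the same way, npffr1l3, a neuropeptide FF receptor, changed by 3.91 ± 0.49 on 117 and 11 reads, and the endopeptidase phex by 2.03 ± 0.22.

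The largest falls included a protease and matrix genes. The gene PLAT, tissue plasminogen activator, ranged from 1.05 to 7.37 CPM with a median of 2.01 CPM at 300um and from 6.55 to 49.5 CPM with a median of 12.2 CPM at 100_300um. It was lower in all 9 pairs, which is a condition of the rule for the largest changes. Its sizes did not overlap within a population, and it changed by -2.40 ± 0.29 (SE, adjusted p = 0.001514). The matrix gene FBLN2, fibulin 2, fell by 2.24 (SE 0.26) and its sizes did not overlap, and the matricellular gene sparcl1 fell by 2.04 (SE 0.19). The gene HS3ST1, a heparan sulfate sulfotransferase, fell by 2.05 (SE 0.29). Of 37 tested matrix and basement membrane genes 3 were lower (lamb1a, lama5 and HSPG2) and 1 was higher (lama1). That was 10.8% called, against 3.78% over all genes tested. The laminin chain lama1 had a median of 155.7 CPM at 300um and 108.8 CPM at 100_300um and rose by 0.74 ± 0.10, while HSPG2, perlecan, averaged 149 ± 30.8 CPM at 300um and 190.3 ± 56.2 CPM at 100_300um and fell by 0.33 (SE 0.05). The calls of lama5 and lamb1a were each lost in 6 of 9 fits with 1 pair left out (adjusted p up to 0.09349 and 0.1072).

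Further genes of the largest falls were an enzyme, a transcription factor and receptors. The cytochrome gene cyp1a, the classic target of the aryl hydrocarbon receptor, had medians of 0.81 CPM at 300um and 3.301 CPM at 100_300um and changed by -2.20 ± 0.33 (SE, adjusted p = 0.002722). The transcription factor egr3 ranged from 0.75 to 5.59 CPM at 300um and from 3.41 to 27.0 CPM at 100_300um and changed by -2.0 ± 0.29 (SE, adjusted p = 0.002877). Its own changes were -1.99 ± 0.49 in Pachon, -1.99 ± 0.52 in Molino and -2.03 ± 0.50 in surface fish. None of the 3 passed (adjusted p = 0.06735, 0.1392 and 0.1046 in that order). The log2 differences of surface replicates 1, 2 and 3 were -4.07, -0.81 and -1.48. A pair of receptors of the tumour necrosis factor family, tnfrsf9a and cd40, which act in immune cells, changed by -2.17 ± 0.49 and -2.15 ± 0.41. Both were lower in all 9 pairs, which is a condition of the rule for the largest changes, and most of all in surface replicate 1. With 1 pair left out their calls were lost in 7 and 6 of 9 fits (adjusted p up to 0.1475 and 0.1135). The macrophage factor irf8 fell to a median of 11.99 CPM at 300um, against 20.4 CPM at 100_300um, and was the 1 called gene of 15 tested macrophage and granulocyte markers. The share called was 6.67%, against 3.78% over all genes tested. The 38 listed markers of those cells summed to 680 to 1210 CPM at 300um and to 727 to 1211 CPM at 100_300um. That sum was lower at 300um in 8 of 9 pairs, but the median change of the tested markers was 0.10, against 0.002 over all genes tested. Within populations this median was -0.03 in Pachon, 0.37 in Molino and 0.39 in surface fish. The part of those cells in the falls was not tested. None of 6 tested lymphocyte markers and none of 10 tested erythrocyte markers passed.

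Among stroma and vessel markers 3 genes were called, all higher at 300um. The smooth muscle actin gene acta2 ranged from 6.25 to 54.3 CPM with a median of 16.7 CPM at 300um and from 2.33 to 18.2 CPM with a median of 5.34 CPM at 100_300um and rose by 1.72 ± 0.22 (SE, adjusted p = 0.001649). It and desmb were the 2 called of 25 tested stroma and smooth muscle markers, a share of 8.0% against 3.78% over all genes tested, and the list median was 0.53 against 0.002. Those markers, 31 in the table, summed to 425 to 1558 CPM at 300um and to 402 to 982 CPM at 100_300um, higher at 300um in 8 of 9 pairs. In the RefSeq table acta2 overlaps an uncharacterised gene, as do igf1ra, HSPG2 and syt7b, so reads may mix if strand was not used in counting. The highest sums were in surface replicate 2 and Molino replicate 3 at 300um, with 1558 and 1330 CPM. Of 21 endothelial markers 1 passed (4.76%), plvapb, which forms vessel diaphragms, with a rise of 1.77 ± 0.44 that was lost in 8 of 9 fits with 1 pair left out. The endothelial sum was 69.7 to 259 CPM at 300um and 50.5 to 243 CPM at 100_300um, higher at 300um in 7 of 9 pairs. The part of stroma in the other rises was not tested. Surface replicates 1 and 2 and Molino replicate 3 are the pairs that hold the libraries with raised somatic markers. A fit without them leaves surface fish with 1 pair and does not test that part.

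**Figure D3:**
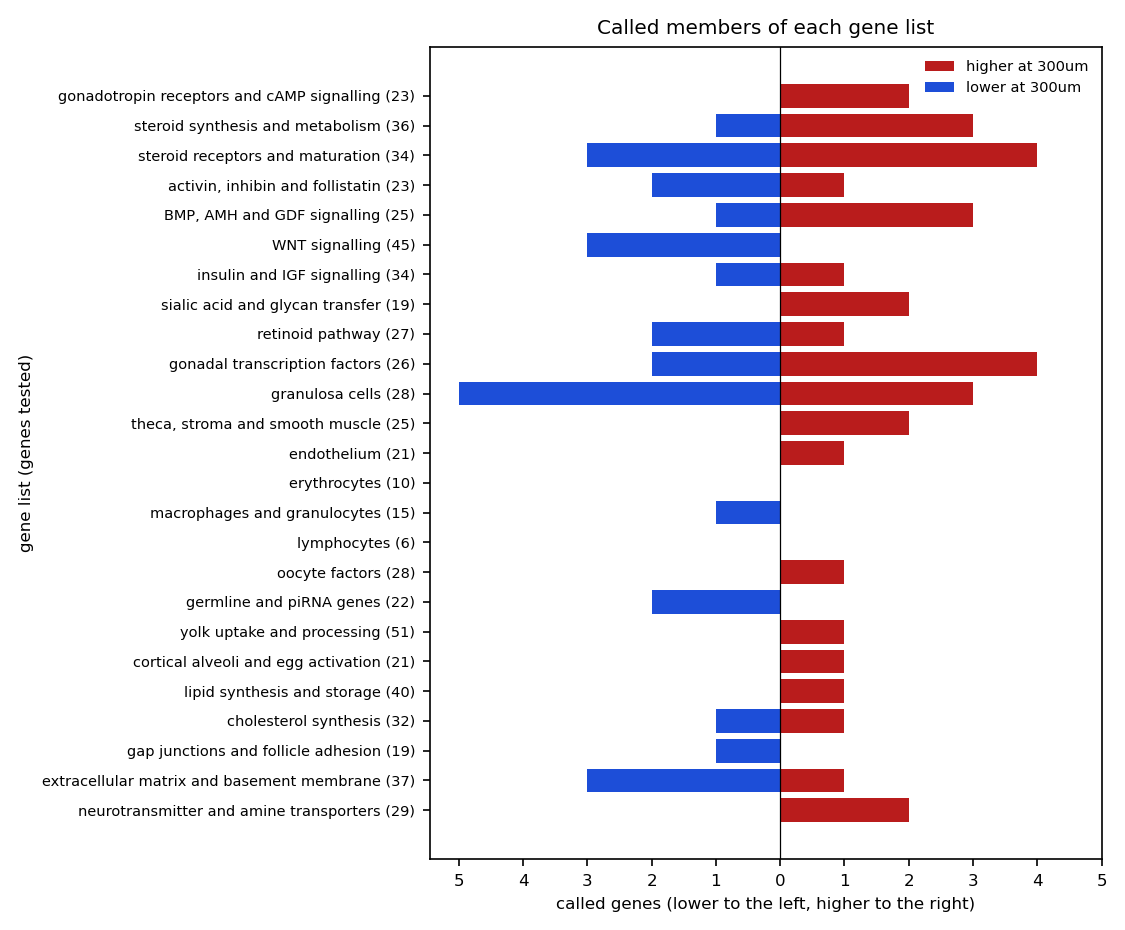
Number of genes of each of 25 gene lists that passed an adjusted p of 0.05 in the averaged comparison, higher at 300um to the right (red) and lower to the left (blue), with the number tested in brackets. The granulosa list has 3 higher and 5 lower genes, the WNT list 3 lower and none higher, and erythrocytes and lymphocytes none.

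Of 28 tested oocyte factors 1 passed on average, zp2l1, an egg coat gene, which averaged 777 ± 236 CPM at 300um and 543 ± 174 CPM at 100_300um and rose by 0.52 ± 0.11. In Pachon the summed oocyte factors were higher at 300um in all 3 pairs, with 19880, 15720 and 16620 CPM at 300um against 16080, 12640 and 14190 CPM at 100_300um. They were lower at 300um in all 6 Molino and surface pairs. The list median was 0.25 in Pachon, with 2 members called higher, -0.03 in Molino and -0.16 in surface fish with none called, and the difference between populations was not tested for the sum. The maternal factor zar1 averaged 759 ± 269 and 820 ± 177 CPM in that order and figla, a factor that switches on egg coat genes in mammals, 6.27 ± 2.18 and 5.49 ± 2.07 CPM (SD, n = 9 each), and neither passed. Of 22 tested germline and piRNA genes 2 were lower: ddx4, the germ cell helicase also called vasa, by 0.23 (SE 0.05) and tdrkh, a piRNA biogenesis factor, by 0.26 (SE 0.06). Further, 1 of 51 genes for yolk uptake and processing rose, rab5c, a regulator of early endosomes, by 0.27 ± 0.06, and 1 of 21 for cortical alveoli and egg activation, syt7b, a calcium sensor of exocytosis, by 1.57 ± 0.23. Of 40 lipid genes, slc27a6, a fatty acid carrier, rose by 0.89 ± 0.17. Of 32 cholesterol genes, dhcr7, the last enzyme of one synthesis route, rose by 1.78 ± 0.34 and lbr, a nuclear membrane sterol reductase, fell by 0.22 (SE 0.05). The shares called in these lists, at 1 or 2 genes each, compare with 3.78% over all genes tested. Of these, syt7b kept its call in every setting, while zp2l1 lost it in 5, ddx4 in 4, tdrkh in 5, rab5c in 5, slc27a6 in 1, dhcr7 in 3 and lbr in 6 of 9 fits with 1 pair left out.

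Each population's own change was read from the same fit. In Pachon 230 genes were called (1.42% of genes tested), 177 higher and 53 lower, in Molino 148 (0.915%), 133 higher and 15 lower (0.0927%), and in surface fish 148 (0.915%), 58 higher and 90 lower. The split in Pachon depended on scaling, with 163 higher and 206 lower when library totals replaced the trimmed mean scaling. The Pachon count came to 9, 2 and 0 without Pachon replicate 1, 2 or 3, to 3 with all 36 libraries and to 1756 without surface replicate 1. The surface split turned to 501 higher and 138 lower without surface replicate 1, and the 6 surface libraries fitted alone gave 3 genes. In Molino the count came to 42, 30 and 37 without Molino replicate 1, 2 or 3, and to 491 without surface replicate 1. Of the 304 genes higher on average, 56 were called in Pachon, 116 in Molino and 51 in surface fish, and 272 had the same sign in all 3 populations. Of the 308 lower genes, 33 were called in Pachon, 11 in Molino and 70 in surface fish, and 295 had the same sign in all. The median own change of the higher genes was 0.65 in Pachon, 1.27 in Molino and 0.64 in surface fish, and that of the lower genes was -0.51, -0.40 and -0.61 in that order. Since those genes were picked by the average of the same values, these medians are a description.

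In this fit 14 genes were called in all 3 populations, 9 higher and 5 lower. That overlap is bounded by the calls of each population, and the 3 populations share 1 estimate of the spread in this fit. Fitted alone, the 6 surface libraries gave 3 genes, the 6 Molino libraries 419 and the 6 Pachon libraries 3124. In the joint fit the Pachon calls came to 9, 2 and 0 without Pachon replicate 1, 2 or 3. The Pachon call of inhbb was lost in each of those 3 fits (adjusted p up to 0.2339). Those with a symbol were lhcgr, cmah, slc6a11a, hsd17b3, aqp9b and SLC4A11 on the higher side and inhbb and fstl3 on the lower. For lhcgr the own change was 2.30 ± 0.41 in Pachon, 3.70 ± 0.40 in Molino and 3.15 ± 0.42 in surface fish. For cmah it was 3.05 ± 0.47, 4.24 ± 0.40 and 3.83 ± 0.38, and for fstl3 -2.20 ± 0.43, -2.18 ± 0.40 and -3.00 ± 0.39, in the same order of populations (SE). These 3 genes had the same sign in every population, which follows from their being picked for going the same way in 9 pairs. Other leading genes passed in some populations and not in others: slco1c1 changed by 3.45 ± 0.65 in Molino and 3.89 ± 0.59 in surface fish, while its change in Pachon was 0.42 ± 0.39 (adjusted p = 0.6228). In surface fish hsd17b1 changed by -3.24 ± 0.48, wnt4 by -5.02 ± 0.76 and sall1a by -3.32 ± 0.38. Their changes in Pachon were -1.41 ± 0.42, -2.86 ± 0.74 and -1.87 ± 0.35, and in Molino -1.48 ± 0.47, -1.91 ± 0.72 and -1.77 ± 0.39, and no difference between populations passed for any of these 4 genes.

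**Figure D4:**
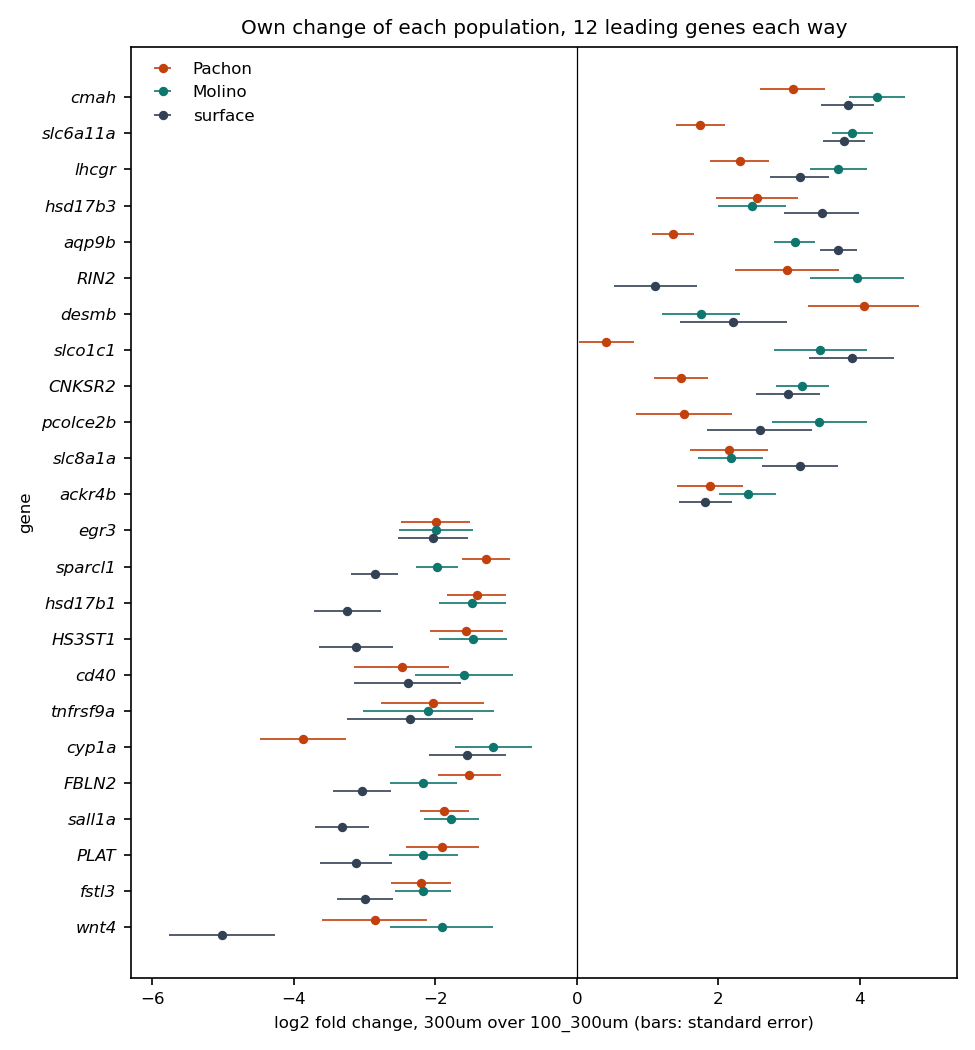
Own log2 fold change of 300um over 100_300um (horizontal, points with bars of the standard error derived from the F statistic) of the 24 leading genes in Pachon (top of each row), Molino and surface fish. All points of the upper 12 genes are above 0 and all of the lower 12 are below 0, and the bars of the populations often overlap.

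Tests of the difference itself gave counts that depended on the setting. The change in Pachon differed from that in surface fish for 21 genes (0.130%), 19 of them with the higher change in Pachon, and the change in Molino differed from that in surface fish for 2 (0.0124%). For Pachon minus surface DESeq2 called 171, and 11 of these were among the 21. It gave no adjusted p for the genes named below for that difference. For the same difference edgeR called 957 without surface replicate 1. It called 0 with library totals or all 36 libraries and 0 or 1 with a Pachon replicate left out. No gene passed between Molino and Pachon, where 1512 had an unadjusted p under 0.05 and DESeq2 called 91. No gene passed the joint test of any difference, where 1631 had an unadjusted p under 0.05 and DESeq2 called 179. By chance about 809 of the 16174 genes would have an unadjusted p under 0.05. For Molino minus surface the count was 852, near that number, and for Pachon minus surface it was 1983.

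In surface fish fshr fell at 300um, to 3.00, 1.91 and 2.53 CPM, against 9.65, 8.01 and 7.15 CPM at 100_300um. In Molino it was 6.29, 8.21 and 9.91 CPM at 300um, against 2.79, 3.77 and 6.48 CPM at 100_300um, and in Pachon 5.03, 7.87 and 5.20 CPM against 4.65, 7.51 and 3.396 CPM. Surface libraries of the 2 sizes did not overlap, and those of Molino overlapped by 1 library. Molino minus surface was 2.68 ± 0.37 (SE, adjusted p = 0.04463). Pachon minus surface was 1.99 ± 0.37 and did not pass (SE, adjusted p = 0.06115). The Molino minus surface call was lost in 6 of 9 fits with 1 pair left out, namely every Pachon and Molino pair (up to 0.3508).

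Besides rpl29, 4 genes named by the rule differed in their change between Pachon and surface fish. The gap junction gene gja1b was 3.201, 5.57 and 2.31 CPM at 300um and 1.84, 5.09 and 3.52 CPM at 100_300um in Pachon, and 1.95, 2.35 and 1.81 CPM at 300um and 14.9, 17.1 and 4.88 CPM at 100_300um in surface fish. The difference of the changes was 2.6 ± 0.45 (SE, adjusted p = 0.04866). For gsdf it was 2.54 ± 0.39, with a change of 0.29 ± 0.28 in Pachon and -2.25 ± 0.27 in surface fish. The bicarbonate carrier slc4a4a changed by -0.05 ± 0.36 in Pachon and by 3.14 ± 0.27 in surface fish, a difference of -3.19 ± 0.45, and in Molino its change was 2.58 ± 0.28. For aqp9b the changes were 1.36 ± 0.29 in Pachon and 3.70 ± 0.26 in surface fish, and the difference was -2.34 ± 0.40. Each of these 4 differences lost its call in 6 or 7 of 9 fits with 1 pair left out (adjusted p up to 0.2937).

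Ribosomal protein genes, grouped after the differences were seen, supplied 5 of the 21 genes called for Pachon minus surface. Of these genes 82 were tested, and 0.130% of all genes tested were called. As the group was made after seeing these calls, the count is a description. The gene rpl29 was 70.7, 60.1 and 72.8 CPM at 300um and 22.6, 22.08 and 27.7 CPM at 100_300um in Pachon, and 41.7, 40.6 and 34.3 CPM at 300um and 32.0, 40.4 and 47.1 CPM at 100_300um in surface fish. Its sizes were apart in Pachon and mixed in surface fish, and the changes differed by 1.52 ± 0.26 (SE, adjusted p = 0.04692), a call lost in 6 of 9 fits with 1 pair left out (adjusted p up to 0.2769). Over 82 ribosomal protein genes the median change was 0.51 in Pachon, 0.03 in Molino and -0.09 in surface fish, with 44, 0 and 0 called higher, against 1.09%, 0.822% and 0.359% of all genes tested. The 44 calls came down to 0, 1 and 0 when Pachon replicate 1, 2 or 3 was left out and to 0 with all 36 libraries, while the median with a Pachon replicate left out stayed between 0.41 and 0.56. The count was 20 without the replicate block and 23 without Molino replicate 2. It was 57 with the Wald test of DESeq2 and 61 with the 6 Pachon libraries fitted alone.

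**Figure D5:**
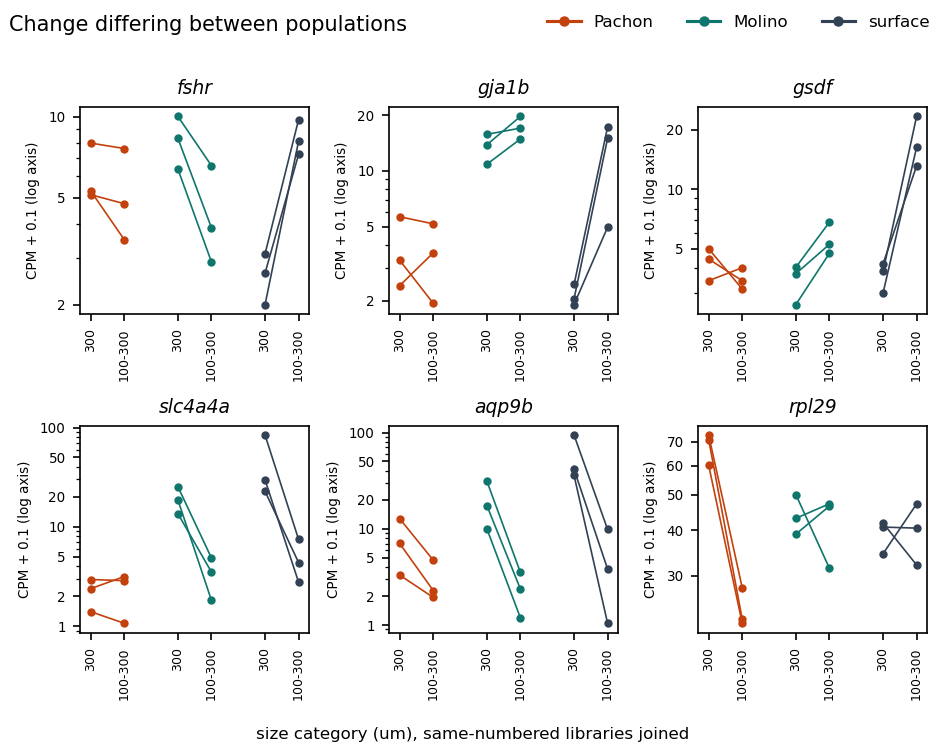
Level in each library (CPM + 0.1, log axis) of the 6 genes named for a difference of change between populations, with 300um left of 100_300um. In surface fish fshr, gja1b and gsdf slope up from 300um to 100_300um in all 3 pairs, in Pachon slc4a4a is nearly level, and in Pachon rpl29 is higher at 300um in all 3 pairs.

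The called genes were also placed along all 4 size categories, from 36 libraries scaled together and with no test. Of the 304 genes higher at 300um, 263 (86.5%) had their highest mean in the 40um libraries, against 41.9% of all genes tested, and 25 (8.22%) in the 300um libraries, against 12.8% of all genes tested. Of the 308 lower genes, 161 (52.3%) were highest at 40um and 59 (19.2%) at 100_300um, a share near that of all genes tested, 2911 of 16174. Since these genes were picked by the same values, 0 of the higher ones were highest at 100_300um and 0 of the lower ones at 300um. All genes tested carry no such limit, so their shares are not a like baseline and nothing is drawn from the contrast. The gene lhcgr averaged 224 ± 186 CPM at 40um, 2.90 ± 2.81 CPM at 40_100um, 3.405 ± 1.18 CPM at 100_300um and 30.8 ± 18.95 CPM at 300um (SD, n = 9 each). The gene fstl3 averaged 113 ± 70.7, 7.32 ± 3.93, 42.4 ± 29.8 and 6.83 ± 3.49 CPM over the same sizes. Both were highest at 40um, lhcgr was low in the 2 middle sizes, and fstl3 was low at 40_100um and again at 300um.

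Of the 66 genes, 14 carry no symbol in the files, and 4 of them were picked after their values were seen. The gene ENSAMXG00000005291 was the most abundant, with 64.6 to 2173 CPM and a median of 582 CPM at 300um and 22.0 to 255 CPM with a median of 43.06 CPM at 100_300um, and rose by 3.03 ± 0.19 (SE, adjusted p = 0.0001333). The gene ENSAMXG00000020132 had the largest rise of the 66, 4.88 ± 0.32 (SE, adjusted p = 3.138e-06), and its sizes did not overlap. Among those that fell, ENSAMXG00000035182 changed by -3.27 ± 0.40, and ENSAMXG00000035714, with a median of 5.78 CPM at 300um and 51.3 CPM at 100_300um, by -2.61 ± 0.29.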

How the data were processed

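Oocytes of 3 populations were sequenced as total RNA after ribosomal depletion with a directional kit, per the labels' protocols, on a Singular Genomics G4. Input mass and PCR cycles varied, and the labels do not say which library had which. The deposited values are whole-number read counts for 27420 genes. STAR 2.7.10b and RSEM are named, without a role, per the submitters' processing notes, and the genome build and the strand setting of counting are not given in the sources used here. Reads assigned to no gene did not enter the library sizes. They were, on average, 19.2% in no feature, 12.4% multimapping and 9.1% unmapped at 300um, and 18.2%, 8.6% and 8.3% at 100_300um. The deposited normalised table was not used here.

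Genes passing filterByExpr (minimum count 10, minimum total 15) were scaled with TMM and fitted with edgeR 4.0.16 (R 4.3.3, robust quasi-likelihood F test) with 9 blocks, population by replicate number, and a size effect within each population, leaving 6 residual degrees of freedom. Adjusted p-values are Benjamini-Hochberg over all 16174 genes tested, with a threshold of 0.05. CPM were computed with the TMM-scaled library sizes. The block follows the study's numbers. Deviations of same-numbered libraries from the mean of their group correlated at 0.292 to 0.629 in 9 of 9 pairs. Each was closest to its own number, against -0.479 to 0.17 for other numbers. Deviations from a group mean sum to 0, so positive values for same numbers force lower ones for other numbers. That contrast is partly built in and does not tell whether the pairs share a fish. Replicates differed by more than counting noise (chi-square per degree of freedom 2.45 to 31.75).

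The gene lists and the genes named were chosen with earlier results of these data known. Named are the 12 largest changes each way among called genes that have a symbol, average 1 or more in log2 CPM and go the same way in 9 pairs; up to 4 called members of each list; up to 3 each way in each difference between populations and in each population; and 19 anchor genes. Not every gene the rule names is described. Other genes are said to be picked after their values were seen. Symbols were matched to RefSeq's AstMex3_surface table to find overlapping genes: 74 of 82 named genes matched once and 8 overlap another gene, and 7 share a symbol with another gene. Alternatives were leaving out the block, fitting all 36 libraries, scaling by library totals or by DESeq2 size factors, keeping all genes, the Wald test of DESeq2 1.42.0, dropping the 50 most abundant genes, each population alone, each pair left out, and 3 pairs left out together.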

Additional observations from a re-analysis of the deposited data

Results flagged for a closer look

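Among 71 genes examined for a pair far from the other 8, 10 were found, where chance gives about 1 in 20. Surface replicate 1 stood apart for 7 genes that fell: the log2 difference of 300um minus 100_300um in that pair was -4.41 for fstl3, -5.23 for PLAT, -5.32 for tnfrsf9a, -5.39 for cd40, -4.07 for egr3, -2.46 for hbegfa and -2.54 for lamb1a. The nearest other pair was at -2.73 for fstl3 and -2.53 for PLAT. Every one of these 7 genes was also lower in the other 8 pairs. For fstl3, PLAT, tnfrsf9a, cd40 and egr3 that is a condition of the rule for the largest changes, so nothing is drawn from it. For hbegfa and lamb1a, named from gene lists, the rule set no such condition. The 100_300um library of surface replicate 1 had the highest summed granulosa, stroma, endothelial and erythrocyte markers of its size, with 982 CPM for stroma. The part of those cells in the differences was not tested. Pachon replicate 1 stood apart for 2 genes that rose, at 0.64 for cmah and 0.64 for hsd17b3, below 2.67 and 1.91 in the nearest pairs. Pachon replicate 3 was at 1.99 for star, the 1 pair in which that gene was higher at 300um, with the nearest at -0.06.

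The change differed between populations for 6 named genes. Pachon minus surface was 2.6 for gja1b, 2.54 for gsdf, 1.52 for rpl29, -3.19 for slc4a4a and -2.34 for aqp9b, and Molino minus surface was 2.68 for fshr.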

How the results depend on the processing

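Of the named genes' averaged and own values, 642 were unchanged in direction and call, 128 lost their call and 1 reversed over the settings other than leaving out 1 pair. Over the fits with 1 pair left out, 671 were unchanged, 184 lost their call and 0 reversed. The reversal was figla, not called in any case, at -0.02446 without surface replicates 1 and 2 and Molino replicate 3. The cause of the changes below was not tested. DESeq2 gave no adjusted p for 7 values, which are left out here. They are Pachon minus surface for gja1b, gsdf, rpl29, slc4a4a and aqp9b, and the own Pachon changes of cyp1a and inhbb.

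The averaged count of 612 was 630 with DESeq2 size factors, 616 with library totals, 626 without the 50 most abundant genes, 732 with the Wald test of DESeq2 and 847 with no expression filter. Without the replicate block it was 117, and 115 of these genes were also among the 612. The counts without the block were 28 in Pachon, 20 in Molino and 17 in surface fish, 1 for Pachon minus surface and 0 for Molino minus surface. Fitted with all 36 libraries, the averaged count was 195, with 3 in Pachon, 42 in Molino and 73 in surface fish, and 0 for both Pachon minus surface and Molino minus surface. Without surface replicates 1 and 2 and Molino replicate 3, which leaves surface fish with 1 pair whose spread is taken from the other populations, the counts were 1050 on average, 3665 in Pachon, 641 in Molino and 380 in surface fish. In the same setting they were 1482 for Pachon minus surface, 65 for Molino minus surface, 2034 for Molino minus Pachon and 2364 for any difference. Each population fitted alone gave 3124 in Pachon, 419 in Molino and 3 in surface fish.

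With no expression filter the counts were 430 in Pachon, 224 in Molino and 265 in surface fish, 109 for Pachon minus surface, 36 for Molino minus surface, 51 for Molino minus Pachon and 133 for any difference. With the Wald test of DESeq2 they were 470 in Pachon, 171 for Pachon minus surface, 11 for Molino minus surface, 91 for Molino minus Pachon and 179 for any difference. With library totals they were 369 in Pachon, 0 for Pachon minus surface and 1 for Molino minus surface. Pachon minus surface gave 10 with DESeq2 size factors and 12 without the 50 most abundant genes. With 1 pair left out at a time, the averaged count ran from 183 without Pachon replicate 2 to 1750 without surface replicate 1. It ran from 0 to 1756 in Pachon, from 30 to 491 in Molino and from 86 to 639 in surface fish. For the differences it ran from 0 to 957 for Pachon minus surface, 0 to 41 for Molino minus surface, 0 to 229 for Molino minus Pachon and 0 to 682 for any difference. Every one of these upper ends came without surface replicate 1. Genes with few reads, such as wnt4, rspo3 and DIO3, are limited by depth.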

Other observations

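Immediate early and stress response genes, a list made after the values were seen, are given as a description. Of 50 tested, 15 were lower and 1 was higher on average, where 1.90% of all genes tested were lower and 1.88% higher, and the list median was -0.37, against 0.002 over all genes tested. The lower ones included fosl1a, a subunit of the AP-1 factor, at -1.88 ± 0.19, dusp5, a phosphatase of the ERK pathway, at -1.54 ± 0.20, junba at -1.16 ± 0.20, fosb at -0.98 ± 0.19 and the growth restraint gene phlda2 at -1.84 ± 0.20 (SE). The higher one was klf2b, at 1.03 ± 0.15. Within populations, 3 were lower and 1 higher in Pachon, 0 and 0 in Molino, and 6 and 0 in surface fish. The shares of all genes tested that were lower were 0.328% in Pachon, 0.0927% in Molino and 0.556% in surface fish. The list median was -0.25 in Pachon, -0.08 in Molino and -0.63 in surface fish. Each lower gene named here fell most in surface replicate 1. The log2 difference in that pair was -3.55 for fosl1a, -3.05 for dusp5, -2.7 for junba, -2.76 for fosb and -2.68 for phlda2.

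Of 12 tested genes of the aryl hydrocarbon receptor battery, the receptor and its partners included and also listed after the values were seen, 3 were lower, cyp1a, TIPARP and ugt1b2, and none was higher. Over all genes tested 1.90% were lower and 1.88% higher. The gene TIPARP, a feedback inhibitor of that receptor, averaged 7.98 ± 5.05 CPM at 300um and 32.8 ± 34.7 CPM at 100_300um (SD, n = 9 each) and changed by -1.64 ± 0.25 (SE, adjusted p = 0.009379). Its own change was -2.11 ± 0.42 in Pachon and -2.41 ± 0.44 in surface fish. In Molino it was -0.38 ± 0.46 and did not pass (adjusted p = 0.9325), and no difference between populations passed. The highest level at 100_300um was 113.8 CPM, in surface replicate 1.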
